A study of Homo sapiens with 20 samples.

Results

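The regions described here carry H3K4me3 in every library of the study and are wider in dabrafenib-treated colonies of the WM164 melanoma line than in its parental cells. Peaks of 10 lists on chromosomes 1 to 22 and X were merged into 31428 regions wherever they lay within 1000 bp of each other. A region was kept if it had a peak in all 10 lists, which held for 12087 regions, and if fewer than 5000 bp lay under peaks in at least 1 list, which left 11496 eligible regions. Of these, 595 regions (5.18%) had a mean number of bases under peaks in the 2 colony lists that was at least 33% above the mean of the 2 parental lists. The regions were thus chosen by the covered bases of the colony and parental lists, and the difference between those groups is given as a description, with no test.

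WM164 is a human melanoma cell line with a mutant BRAF kinase, which all groups share. H3K4me3 was mapped by chromatin immunoprecipitation and sequencing in 2 libraries for each of 5 groups. Parental cells received DMSO for 3 days. Colony cells had been kept for 45 days in 50 nM dabrafenib, a BRAF inhibitor, and resistant cells for more than 90 days at the same dose, with the drug given anew every 3 days. The other groups overexpressed either GFP or the oncoprotein NRAS Q61K, without a drug in their labels. For these transgene cells the labels name neither the vector, nor the time since its introduction, nor the fixation. The labels do not say whether replicates were separate cultures, so every p-value below measures only the spread between these libraries, which may be technical.

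H3K4me3, the trimethylated form of lysine 4 on histone H3, is laid down by the SET1 and MLL methyltransferase complexes at the start sites of active and poised genes. It flanks the nucleosome-depleted start on both sides and reaches further into the transcribed part. The width of a domain varies between genes, and broad domains are known for genes that define the identity of a cell. BRAF sits in the MAPK kinase cascade downstream of RAS, so an activated NRAS signals into the same cascade that a BRAF inhibitor blocks.

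Positions are in GRCh37 and counted from 1. Genes were not placed on them, because the annotation used belongs to another build, so each region is named by its chromosome band. The melanocyte identity of the cells was for the same reason not checked here.

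The label of a constitutive region widened in colonies held for most regions list by list. Both colony lists covered more bases than both parental lists in 568 of the 595 regions (95.5%), beside 28.9% of the eligible regions. In the remaining regions the colony and parental pairs overlapped. Both colony lists lay above all 8 other lists in 381 regions (64.0%), beside 10.8% of the eligible regions. These counts partly restate how the regions were chosen.

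**Figure D1:**
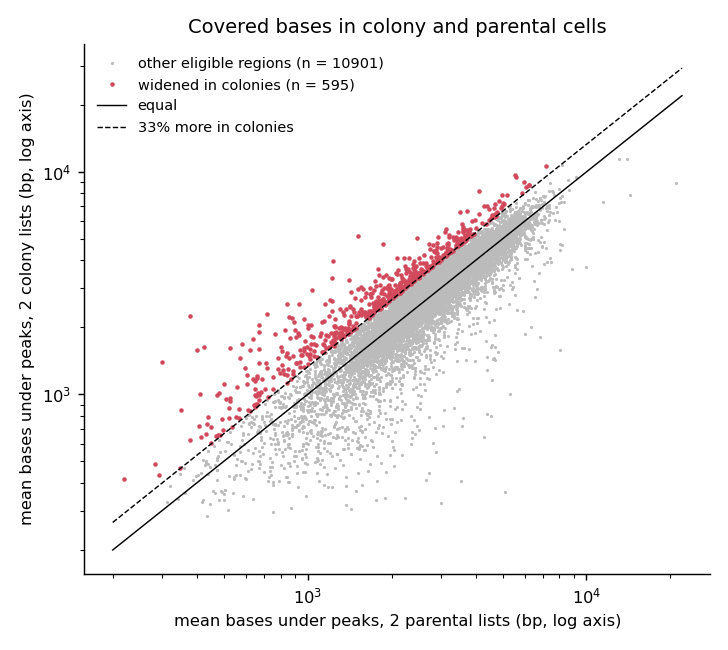
Mean bases under peaks per region in the 2 colony lists (vertical, bp, log axis) against the 2 parental lists (horizontal, bp, log axis), 1 point per eligible region. The 595 widened regions (red) lie on or above the dashed line of 33% more, which chose them, and the other 10901 (grey) lie below it, spread around the solid line of equal coverage.

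Most of the regions were only moderately wider. The ratio of colony to parental coverage had a median of 1.44 and a middle range of 1.37 to 1.61, and reached 5.95. It was 1.5 or more in 239 regions, 2 or more in 47 and 3 or more in 10. The median region added 934 bp, beside 40 bp among all eligible regions, whose median ratio was 1.01. Regions on either side of the threshold had like values. The region in 1p36.23 (chr1:8013447-8015859) was just inside, with 1774 and 1539 bp in the parental lists and 2108 and 2300 bp in the colony lists. The region in 15q26.1 (chr15:89437861-89439081) was also just inside, with 734 and 338 bp in the parental pair and 627 and 800 bp in the colony pair, so its pairs overlapped. The region in 8q11.23 (chr8:54751411-54757110) was just outside, with 3374 and 3636 bp in the parental pair and 4625 and 4698 bp in the colony pair. So was the region in 1q32.1 (chr1:205289659-205291230), with 1191 and 1033 bp in the parental pair and 1556 and 1401 bp in the colony pair. Both outside regions had colony pairs clear of their parental pairs.

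By median, the regions were narrower than the eligible regions in parental lists and close to them in colony lists. This partly restates how they were chosen. Median coverage of the 595 regions was 2036 and 1768 bp in the parental lists, where the median eligible region had 2951 and 2698 bp. In the colony lists it was 2780 and 2916 bp, beside 2835 and 2905 bp for the eligible regions, so the medians lay close together. In each list of the other groups the widened regions were the narrower ones. Resistant lists had a median of 1832 and 1844 bp (eligible 2465 and 2401 bp), GFP lists 2109 and 2038 bp (eligible 3110 and 3059 bp), and NRAS Q61K lists 2276 and 2092 bp (eligible 3085 and 2892 bp). Summed over the 595 regions, peaks covered 1297 and 1154 kb in parental, 1806 and 1870 kb in colony, 1180 and 1158 kb in resistant, 1344 and 1300 kb in GFP and 1451 and 1325 kb in NRAS Q61K lists. The colony pair was the highest, and NRAS Q61K replicate 1 came next. By quartile of parental width, 339 of 2874 regions (11.8%) widened in the narrowest quartile, 4.14% in the second, 2.96% in the third and 1.81% in the widest. Narrowing by the reciprocal of the factor was also most frequent in the narrowest quartile (16.9%), and over all eligible regions 1061 (9.23%) narrowed that far, more than widened.

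**Figure D2:**
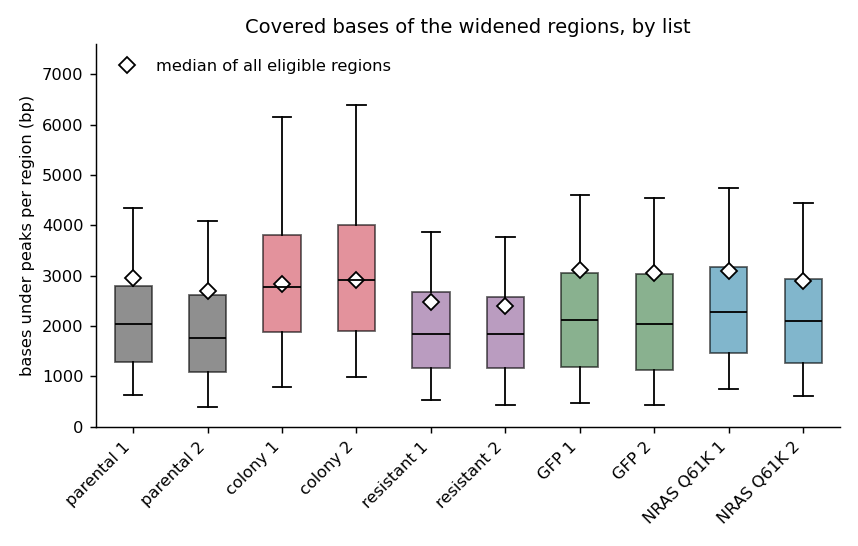
Bases under peaks per widened region (vertical, bp) in each of the 10 lists, with the median, the quartiles (box) and the 5th to 95th percentile (whiskers) over the 595 regions; diamonds mark the median of all 11496 eligible regions. In the colony lists the median of the widened regions (2780 and 2916 bp) lies at the diamond, and in the other 8 lists it lies below.

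Replicates of the widened regions spread more widely than those of the eligible regions, and the parental and colony spread enters the choice. Whether narrow domains spread more in general was not tested. The higher parental list was at least 33% above the other in 130 of the 595 regions (21.8%), beside 8.86% of the eligible regions, and the higher colony list in 73 (12.3%), beside 8.92%. Among eligible regions, parental replicate 1 was the higher list in 988 of the 1019 that differed so far. Leaving out parental replicate 1 accordingly raised the number of regions chosen to 1093, and leaving out parental replicate 2 lowered it to 437. The shortest peak, which depends on the fragment length, was 202 and 180 bp in the parental pair and 282 and 284 bp in the colony pair. The resistant pair had 255 and 256 bp, the GFP pair 142 and 153 bp and the NRAS Q61K pair 153 and 151 bp. Peak width follows fragment length too, and fragment length and treatment cannot be told apart between colony and parental libraries. With the shortest peak of each list subtracted from every peak, the rule chose 568 regions, 442 of them among the 595. Each list divided by its own median gave 513 regions, all among the 595. The lists hold no read counts, and the depth implied by the peak statistics was 24.8 and 19.7 background reads per kb in parental and 15.7 and 14.5 in colony libraries. This implied depth is the lowest background divided by the shortest peak, so it holds only as far as the shortest peak stands for the fragment length. The part of depth in the widening was not tested.

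The added bases lay mostly at the outer ends of the domains. Bases covered in both colony lists and in neither parental list came to 368 kb over the 595 regions, with a median of 499 bp per region, beside 15 bp per eligible region. Of these new bases, 40.9% lay beyond the low-coordinate end of the parental peaks, 42.7% beyond the high-coordinate end and 16.4% in gaps between them. Over all eligible regions 75.4% of new bases lay at the ends, beside 83.6% here. Taking 200 bp as the least step, 350 regions (58.8%) grew at 1 end, 84 (14.1%) at both ends, 38 (6.39%) inside alone and 123 (20.7%) nowhere by that much in both lists. Among all eligible regions 1445 grew at 1 end, 116 at both, 352 inside alone and 9583 nowhere by that much, so growth at 1 end was the most frequent form in both. Of the widened regions 249 grew at the low-coordinate and 269 at the high-coordinate end, with those that grew at both in each count. The reverse, bases in both parental lists and neither colony list, came to 6.55 kb, and 10 regions lost 200 bp or more. The span between the outermost peak ends had a median of 2122 and 1875 bp in the parental pair and 2935 and 3037 bp in the colony pair. The longest peak in a region rose from a median of 1845 and 1555 bp to 2425 and 2465 bp, while the mean number of peaks per region was 1.54 and 1.69 in parental and 1.71 and 1.66 in colony lists. Over all eligible regions the mean number of peaks was 1.592 and 1.782 in parental and 1.497 and 1.476 in colony lists. It was thus lower in both colony lists than in both parental lists there, whereas in the widened regions colony replicate 2 lay between the parental lists and colony replicate 1 above them.

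The widened regions had low summits in parental lists and ordinary ones in colony lists. Reads at the strongest summit of a region were solved from the authors' fold and p-value of each peak. The median over the widened regions was 66 and 48 reads in the parental lists, which is 0.805 and 0.787 of the median of the eligible regions. In the colony lists it was 58 and 58 reads, 0.983 of the eligible median in each. The resistant lists stood at 0.852 in each, the GFP lists at 0.754 in each and the NRAS Q61K lists at 0.842 and 0.836. By rank of the −log10 q-value within its own list, the median widened region stood at percentile 24.5 and 25.1 of the eligible regions in parental and 43.8 and 46.0 in colony lists. Resistant lists gave 32.1 and 31.6, GFP lists 22.2 and 23.5 and NRAS Q61K lists 27.6 and 27.7, all below the colony values. With each list scaled to its eligible median, the colony to parental ratio of summit reads had a median of 1.26 and was above 1 in 527 of 595 regions (88.6%), beside 1.03 and 55.7% for the eligible regions. So scaled, both colony lists stood above both parental lists in 430 regions (72.3%), beside 35.7% of the eligible regions. In unscaled reads, which also carry any difference in depth between libraries, this held for 137 regions (23.0%), beside 3.43% of the eligible regions. Width and height come from the same reads, so the height is a second description of the same contrast and not an independent test.

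The highest ratio, 5.95, was at a domain in 1q24.1 (chr1:166943139-166946015). Its peaks covered 401 and 356 bp in parental lists and 2188 and 2315 bp in colony lists, with 773 new bases at the low end and 641 at the high end. Resistant lists covered 2004 and 1750 bp, GFP lists 493 and 315 bp and NRAS Q61K lists 908 and 754 bp. Both drug groups thus lay above all lists of the other groups, and the resistant lists exceeded the GFP lists by 2.12 ± 0.17 (SE) on the centred log2 scale (limma, adjusted p = 6.6e-05). A region in 6p22.3 (chr6:20478715-20483755, ratio 3.23) had a like order. It covered 1332 and 1135 bp in parental, 3773 and 4194 bp in colony, 2703 and 3102 bp in resistant, 1244 and 703 bp in GFP and 1572 and 1363 bp in NRAS Q61K lists. All its 2688 new bases lay at the high-coordinate end. The difference between resistant and GFP lists was 1.76 ± 0.19 (SE; limma, adjusted p = 3.25e-04).

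Smaller domains with a high ratio were a region in 8p21.3 (chr8:22013583-22015535), one in 13q31.2 (chr13:88322909-88325245) and one in 1p13.3 (chr1:107683168-107685120). The 8p21.3 region (ratio 4.66) covered 296 and 307 bp in the parental pair and 978 and 1831 bp in the colony pair, against 575 and 514 bp in resistant, 490 and 416 bp in GFP and 633 and 636 bp in NRAS Q61K lists. The 13q31.2 region (ratio 3.97) covered 472 and 330 bp in parental, 1518 and 1663 bp in colony, 646 and 942 bp in resistant, 281 and 471 bp in GFP and 850 and 679 bp in NRAS Q61K lists. The 1p13.3 region (ratio 3.85) covered 605 and 243 bp in parental, 1406 and 1863 bp in colony, 912 and 831 bp in resistant, 322 and 312 bp in GFP and 767 and 379 bp in NRAS Q61K lists. In all of them the colony pair was clear of the other 8 lists, and the resistant pair lay between it and the parental pair. The resistant lists exceeded the GFP lists at 13q31.2 (log2 change 1.11 ± 0.24 SE, limma, adjusted p = 0.00908) and at 1p13.3 (1.37 ± 0.30 SE, adjusted p = 0.0104). The change at this 8p21.3 region missed the threshold (0.51 ± 0.26 SE, limma, adjusted p = 0.166).

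At other regions the width in colonies was not shared by resistant cells. A region in 4q32.1 (chr4:159088283-159094217, ratio 3.42) covered 1666 and 1359 bp in the parental pair and 5182 and 5155 bp in the colony pair. It had the narrowest domain in the resistant lists, with 643 and 609 bp, while GFP lists covered 1556 and 1413 bp and NRAS Q61K lists 2774 and 1172 bp. Of its new bases, 1580 lay at the low end and 1366 filled gaps. The log2 change between resistant and GFP lists was -0.71 ± 0.27 (SE) and missed the threshold (limma, adjusted p = 0.0834).

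The most added bases were found at broader domains, and in each of those named here the resistant pair covered fewer bases than the GFP pair, before centring. On the centred scale the log2 change between resistant and GFP lists was 0.12 ± 0.08 (SE; limma, adjusted p = 0.292) at Xp22.2 and 0.01 ± 0.09 (SE; adjusted p = 0.911) at 1q42.12, the other regions named here being below 0. A region in 8p21.3 (chr8:20106416-20117752) covered 5613 and 5494 bp in parental, 9529 and 9871 bp in colony, 3799 and 3871 bp in resistant, 5683 and 5608 bp in GFP and 6325 and 5766 bp in NRAS Q61K lists. A region in 22q11.22 (chr22:22891139-22902916) covered 7176 and 7138 bp in parental, 10756 and 10408 bp in colony, 4150 and 4380 bp in resistant, 7127 and 6748 bp in GFP and 7464 and 7241 bp in NRAS Q61K lists. Both were called narrower in resistant than in GFP lists (limma; log2 change -0.21 ± 0.05 SE, adjusted p = 0.0098, and -0.36 ± 0.06 SE, adjusted p = 0.00244). Both were under 5000 bp in the resistant lists alone, so they were eligible only because those lists were narrow there, and their order is a description. A region in 1p36.11 (chr1:26388289-26395964) was also widest in colony and narrowest in resistant lists, with 3402 and 3649 bp in parental, 6260 and 6960 bp in colony, 1532 and 2137 bp in resistant, 3011 and 2618 bp in GFP and 3506 and 2948 bp in NRAS Q61K lists. Its change between resistant and GFP lists missed the threshold (log2 change -0.26 ± 0.15 SE, limma, adjusted p = 0.225).

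Gap filling marked a region in 1q42.12 (chr1:226918761-226927931), where 2250 of the new bases lay between parental peaks. It covered 4653 and 3562 bp in parental, 8319 and 8071 bp in colony, 2982 and 3113 bp in resistant, 3847 and 3786 bp in GFP and 5354 and 5677 bp in NRAS Q61K lists. It was the only one of the regions with the most added bases that was called wider in NRAS Q61K than in GFP lists (log2 change 0.56 ± 0.09 SE, limma, adjusted p = 0.0113). A region in Xp22.2 (chrX:15864352-15875300) filled 1581 bp of gaps and covered 6227 and 4988 bp in parental, 8785 and 10162 bp in colony, 5169 and 5024 bp in resistant, 6180 and 5572 bp in GFP and 7387 and 6499 bp in NRAS Q61K lists. Its colony pair was clear of all other lists. Parental replicate 2 was its only list under 5000 bp, so the Xp22.2 region was eligible through that list alone, which also enters its ratio.

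**Figure D3:**
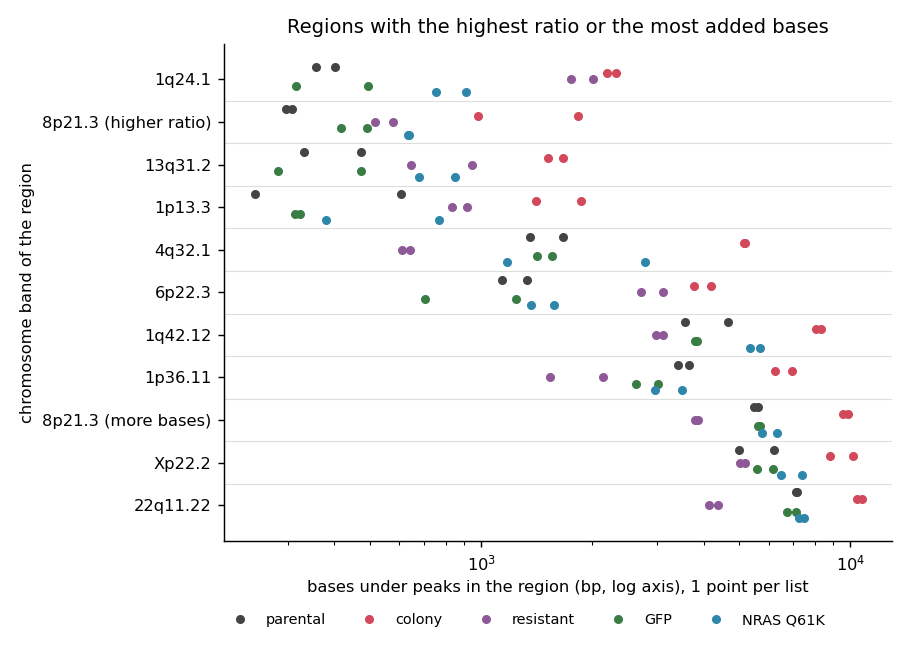
Bases under peaks (horizontal, bp, log axis) in each of the 10 lists for the 6 regions with the highest colony to parental ratio and the 6 with the most added bases (1 region, in 4q32.1, is both), 1 point per list, coloured by group. The colony points lie right of all others in each row, whereas the resistant points lie near them at 1q24.1 and 6p22.3 and left of all others at 4q32.1, 1q42.12, 1p36.11, 22q11.22 and the larger 8p21.3 region.

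In the other groups the coverage of the widened regions was as follows. Both resistant lists were above both parental lists in 143 of the 595 regions (24.0%), beside 7.79% of the eligible regions, and both were below in 216 (36.3%), beside 60.2%. Both reached the lower colony list in 50 regions (8.40%, beside 22.3%). The GFP lists were both above the parental lists in 233 regions (39.2%, beside 42.4%) and both reached the lower colony list in 40 (6.72%, beside 65.5%). The NRAS Q61K lists were both above the parental lists in 282 regions (47.4%, beside 32.2%) and both reached the lower colony list in 56 (9.41%, beside 58.2%). Median ratios to the parental mean were 0.953 in resistant, 1.09 in GFP and 1.14 in NRAS Q61K lists, beside 0.860, 1.08 and 1.05 for the eligible regions. Coverage at least 33% above the parental mean was found in 94 regions (15.8%) in resistant, 64 (10.8%) in GFP and 120 (20.2%) in NRAS Q61K lists, beside 2.42%, 3.67% and 4.39% of the eligible regions. No test was made of these values, since regions picked for low parental and high colony coverage are moved towards the other groups by the choice alone.

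Resistant against GFP cells compares cells kept in the drug with cells that have no drug in their labels. The widths of these groups did not enter the ratio, but they did enter the limit of 5000 bp in at least 1 list. Of the 595 regions, 169 (28.4%) were called wider in resistant lists and 67 (11.3%) narrower. The shares called wider were 11.1% of all regions tested and 13.7% of the eligible regions, and those called narrower 23.3% and 13.5%. The median log2 change of the widened regions was 0.12 (quartiles -0.14 and 0.46), beside 0.01 for the eligible regions, and 363 of 595 changes were above 0. Through that limit 6 of the 595 regions were eligible by the resistant lists alone, and 4 of them were called narrower. Without such regions the shares called were 28.7% wider and 10.7% narrower (169 and 63 regions), beside 14.0% and 12.7% of the eligible regions. That more of the 595 regions were called wider than narrower rests on the centring of each list on its median. Resistant lists covered fewer bases per eligible region, and without centring 79 of the 595 regions were called wider and 200 narrower. Of all 23153 regions tested, 1026 were then called wider and 11099 narrower. The median log2 change of the widened regions was then -0.20. The groups also differ in the GFP transgene, in fragment length and in handling the labels do not give, which cannot be told apart from the drug. Leaving out GFP replicate 2 left 111 regions called wider, and leaving out GFP replicate 1 left 43 called narrower.

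The wider calls fell mainly on the narrower domains. In the narrowest quartile of parental width, 115 of 339 widened regions (33.9%) were called wider in resistant than in GFP lists, beside 17.0% of all eligible regions of that quartile. In the second quartile the shares were 29.4% and 12.3%. In the third they were 11.8% and 10.9%, and in the widest 17.3% and 14.7%, close to the background. Narrower calls, from the narrowest to the widest quartile, were made for 7.08%, 10.1%, 24.7% and 19.2% of the widened regions, beside 11.7%, 11.1%, 12.6% and 18.6% of the eligible regions. The 169 regions called wider had a median of group means of 1507 bp in parental, 2417 bp in colony, 2196 bp in resistant, 1250 bp in GFP and 1765 bp in NRAS Q61K cells. In covered bases as deposited, the resistant pair was above the GFP pair in 130 of them and below it in 3. The 67 regions called narrower had medians of 2494 bp in parental, 3857 bp in colony, 1312 bp in resistant, 3164 bp in GFP and 2885 bp in NRAS Q61K cells, and in all 67 the resistant pair was below the GFP pair. The resistant and GFP medians of these sets follow from the calls, and the colony and parental medians from the choice of the regions, so they are given as a description.

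The largest rise was at 16q12.1 (chr16:52577199-52582256). This region covered 238 and 153 bp in GFP lists and 3476 and 3758 bp in resistant lists, with 2241 and 1501 bp in parental, 2761 and 2507 bp in colony and 2392 and 1938 bp in NRAS Q61K lists. The GFP pair stood apart below the other 8 lists and the resistant pair was the highest, with a log2 change of 3.60 ± 0.17 (SE; limma, adjusted p = 6e-06). At 6q12 (chr6:69343922-69347147) the lists covered 1218 and 210 bp in parental, 2346 and 2251 bp in colony, 3226 and 2807 bp in resistant, 275 and 235 bp in GFP and 1624 and 1426 bp in NRAS Q61K cells (log2 change 3.14 ± 0.44 SE, limma, adjusted p = 0.00111). Its parental replicates were far apart, and the second was as low as the GFP pair. At 2q36.1 (chr2:222435389-222439448) the lists covered 2478 and 1352 bp in parental, 3350 and 3523 bp in colony, 3030 and 2568 bp in resistant, 223 and 285 bp in GFP and 4060 and 3545 bp in NRAS Q61K cells (3.04 ± 0.20 SE, limma, adjusted p = 2.6e-05). GFP was again the low group there, and NRAS Q61K the highest. A region in 7p11.2 (chr7:57923529-57929892) lies near the centromere, where repeats can share reads, and is therefore uncertain. It covered 1412 and 353 bp in parental, 2052 and 2344 bp in colony, 5105 and 5168 bp in resistant, 374 and 405 bp in GFP and 1151 and 1635 bp in NRAS Q61K lists (3.50 ± 0.40 SE, limma, adjusted p = 3.81e-04).

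The largest falls had resistant domains of well under 1000 bp. At 16p13.11 (chr16:15347688-15351998) resistant lists covered 423 and 256 bp, against 2627 and 2017 bp in parental, 3661 and 3466 bp in colony, 2718 and 2609 bp in GFP and 3586 and 2964 bp in NRAS Q61K lists (log2 change -2.10 ± 0.15 SE, limma, adjusted p = 3.6e-05). At 2q36.2 (chr2:225844961-225849165) they covered 311 and 399 bp, against 2494 and 2494 bp in parental, 3324 and 3697 bp in colony, 2722 and 2121 bp in GFP and 3137 and 2360 bp in NRAS Q61K lists (-1.91 ± 0.15 SE, limma, adjusted p = 6.3e-05). At 2p25.1 (chr2:11751613-11757540) they covered 636 and 523 bp, against 2776 and 2150 bp in parental, 5009 and 5063 bp in colony, 2685 and 2694 bp in GFP and 2715 and 2661 bp in NRAS Q61K lists (-1.57 ± 0.10 SE, limma, adjusted p = 2e-05). In these regions the resistant pair was the lowest of all groups and, apart from NRAS Q61K replicate 1 at 16p13.11, the colony pair the highest. At 20p13 (chr20:4988047-4991431) resistant lists covered 411 and 431 bp and GFP lists 2461 and 2404 bp (-1.76 ± 0.22 SE, limma, adjusted p = 6.53e-04), with 2840 and 2658 bp in NRAS Q61K lists. Its colony values of 3239 and 2364 bp overlapped the parental values of 2622 and 1413 bp.

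NRAS Q61K against GFP cells, the oncogene comparison of the study, gave few calls. It shares the GFP lists with the comparison above, so the calls of both rest on the same controls. Of the 595 regions, 38 (6.39%) were called wider in NRAS Q61K lists and 5 (0.840%) narrower. The shares called wider were 5.06% of all regions tested and 1.96% of the eligible regions, and those called narrower 2.18% and 0.374%. The median log2 change was 0.11, beside 0.02 for the eligible regions, and 398 of 595 changes were above 0. Of the 38, 32 lay in the narrowest quartile of parental width, where 9.44% of the widened regions were called wider, beside 2.85% of the eligible regions. The 38 regions had a median of group means of 1415 bp in parental, 2442 bp in colony, 2326 bp in resistant, 916 bp in GFP and 2208 bp in NRAS Q61K cells. The counts depended on the setting. Without centring 20 of the 595 regions were called wider, beside 938 of the 23153 regions tested, so the share was not above that of all regions. With 1 NRAS Q61K or GFP list left out, the median log2 change of the widened regions ran from 0.0845 to 0.121. A limma fit of the 4 lists alone called 0 in each direction, with 154 of the 595 regions at an unadjusted p under 0.05. For the narrower calls, leaving out NRAS Q61K replicate 2 or GFP replicate 2 left 3, the fit of the 4 lists alone 0, and a fit with the replicate number as a block gave 8.

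At 1q41 (chr1:220700198-220703606) the domain was wide in all groups but GFP. It covered 1852 and 1487 bp in parental, 2945 and 3080 bp in colony, 2783 and 2553 bp in resistant, 499 and 348 bp in GFP and 2336 and 2127 bp in NRAS Q61K lists. NRAS Q61K exceeded GFP lists by a log2 change of 2.02 ± 0.12 (SE; limma, adjusted p = 2.98e-04). The 16q12.1, 2q36.1 and 6q12 regions given above were the other largest rises, at 2.63, 3.19 and 1.97 (limma, adjusted p = 3.06e-04, 3.06e-04 and 0.033).

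The largest fall in NRAS Q61K cells was at 7p12.3 (chr7:47437334-47443729), which covered 2758 and 2259 bp in NRAS Q61K and 4793 and 4719 bp in GFP lists (log2 change -0.83 ± 0.07 SE, limma, adjusted p = 0.00158). Parental lists covered 4546 and 4374 bp there, colony lists 6171 and 5942 bp and resistant lists 3444 and 3615 bp. At 15q15.1 (chr15:42695958-42700709) NRAS Q61K lists covered 1239 and 1232 bp and GFP lists 2387 and 2360 bp (-0.80 ± 0.07 SE, limma, adjusted p = 0.00194), while parental lists covered 2436 and 2061 bp, colony lists 3449 and 3575 bp and resistant lists 2726 and 2833 bp. In both regions NRAS Q61K was the narrowest group and colony the widest. Smaller falls were called at 15q26.3 (chr15:98502423-98508649; -0.45 ± 0.07 SE, limma, adjusted p = 0.0117) and 14q11.2 (chr14:23501448-23505404; -0.41 ± 0.07 SE, adjusted p = 0.0137). The 14q11.2 region covered more in GFP lists (3296 and 3524 bp) than in colony lists (2862 and 2848 bp).

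**Figure D4:**
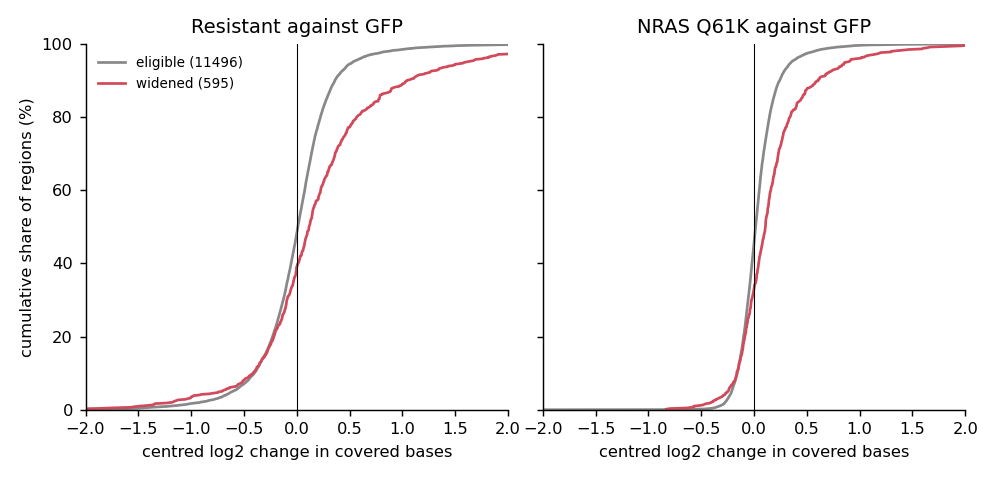
Cumulative share of regions (vertical, %) by centred log2 change in covered bases (horizontal, cut at 2 on either side) for resistant against GFP (left) and NRAS Q61K against GFP (right), in the 595 widened regions (red) and all 11496 eligible regions (grey). The red lines run right of the grey ones above the median (0.12 against 0.01 on the left, 0.11 against 0.02 on the right); without centring the left median is -0.20.

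The widened regions were spread unevenly over the chromosomes, a feature the rule did not use. They made up 11.9% of the eligible regions of chromosome 21, 11.3% of chromosome 22 and 8.68% of chromosome 1 (101 of 1163), but 2.23% of chromosome 19 (17 of 764), 1.58% of chromosome 16 and 1.10% of chromosome 14. By arm, the shares were 14.5% on 8p (22 of 152), 11.8% on 21q (13 of 110), 11.4% on Xq (26 of 229), 11.3% on 20p (12 of 106) and on 22q (32 of 284), and 11.0% on 1q (55 of 501). The lowest were 1.13% on 19p (4 of 354) and 1.10% on 14q (4 of 364). Bands with several widened regions were 22q11.21 with 9 of 50, 1q32.1 with 7 of 53, 1q25.3 with 6 of 22, 8p23.3 with 5 of 9 and 20p12.3 with 5 of 10. In 123 regions (20.7%) at least 1 of the neighbouring eligible regions was widened too, beside 9.28% of the other eligible regions that had a widened neighbour. By band stain, they made up 7.72% of the eligible regions in the darkest G bands (50 of 648) and 4.77% in the unstained bands (336 of 7043). In the bands at the centromeres, where repeats can share reads, the share was 11.8% (9 of 76).

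Local background moved with this distribution. Background reads were solved from the authors' statistics for the strongest peak of each region in each list. They were divided by the lowest background of that list, and averaged over the eligible regions of an arm. On 21q this ratio was 1.02 and 1.04 in parental and 1.31 and 1.31 in colony lists, while resistant lists had 1.24 and 1.23, GFP lists 1.02 and 1.02, and NRAS Q61K lists 1.03 and 1.02. The 13 widened regions of 21q had a median log2 change of 0.40 in resistant against GFP lists. On 13q this change was 0.60, with a background of 1.25 and 1.25 in resistant and 1.08 and 1.09 in GFP lists. The 2 widened regions of 4p had 0.85, though background there was 1.26 and 1.37 in resistant and 1.45 and 1.44 in GFP lists. Background was not set against this comparison over all arms. On 7p the background ratio was 1.41 and 1.42 in parental and 1.62 and 1.62 in colony lists, and 9.30% of the eligible regions of that arm (20 of 215) were widened. On 8p it was 1.16 and 1.16 in parental and 1.25 and 1.26 in colony lists, and on 1q 1.13 and 1.13 against 1.19 and 1.20. On 14q, poorest in widened regions, it was 1.10 and 1.11 in parental and 1.04 and 1.03 in colony lists, and 17.0% of its eligible regions narrowed by the reciprocal factor. On Xq it was 1.00 and 1.01 in parental and 1.02 and 1.02 in colony lists, although 11.4% of its eligible regions were widened. Over the 40 arms with at least 90 eligible regions, the share widened and the log2 change in background had a Pearson r of 0.586 and a Spearman rho of 0.530, given as a description, since all arms share the same 4 libraries. Several arms went against it. On 9q, 3p and 6p the log2 background change was 0.07, 0.07 and 0.06 and 2.20%, 3.34% and 2.97% of the eligible regions were widened, while on 7q and 20q it was -0.08 and -0.06 with 7.36% and 7.77% widened. On 12p, the arm with the lowest log2 background change, it was -0.14 and 4.32% were widened. On 18p, left out by the minimum of 90, it was 0.26 and 1 of 49 eligible regions (2.04%) was widened.

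Region by region, the share was highest where background was higher in colonies. Where background was higher in colonies by more than 0.1 (log2), 159 of 1988 eligible regions (8.00%) were widened. Where it changed by less, 307 of 6889 (4.46%) were, and where it was lower, 129 of 2619 (4.93%). Among regions at the lowest background in all 4 lists, 164 of 4062 (4.04%) were widened, beside 5.80% of the others. The part of local background in the widening was not tested. The input libraries were not used here, and the deposited values do not say whether their reads set this background.

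**Figure D5:**
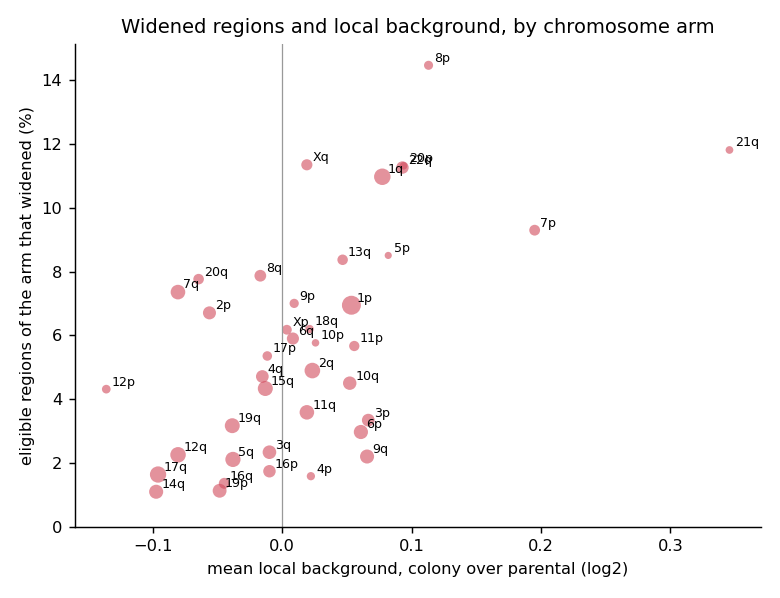
Share of the eligible regions of a chromosome arm that widened (vertical, %) against the mean local background in colony over parental lists (horizontal, log2), for the 40 arms with at least 90 eligible regions; the area of a point grows with the number of eligible regions. 21q, 7p, 8p and 1q at the right have high shares and 14q and 17q at the left low ones, while 12p, furthest left, has 4.32%. The arms 9q, 3p and 6p (right, 2.20% to 3.34%), 7q and 20q (left, 7.36% and 7.77%) and Xq (11.4%, near 0) do not follow that order.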

How the data were processed

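H3K4me3 was measured in 10 libraries, and the authors deposited 1 MACS2 peak list for each. Tools named in the submitters' processing notes are MACS2 2.1.2, deepTools 2.5.4, BWA and SAMtools, with GRCh37 (hg19) as the build. Apart from 13 peaks, the score the authors deposited equals the −log10 q-value multiplied by 10 and cut to a whole number. Each peak's deposited fold sets its summit over a local background. The deposited values do not say whether input or H3K4me3 reads set that background. The summit also carries a deposited p-value and q-value, both as −log10. The lists hold 306884 peaks, and 589 outside chromosomes 1 to 22 and X were set aside. The 10 input samples were not used here.

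Summit and background reads were solved from fold and p-value under a Poisson model, with 1 added to both; all peaks gave a whole number of reads within 0.0005 in −log10 p. Covered bases were tested with limma 3.58.1 (R 4.3.3) on log2(bases + 200). Each list was centred on its median over regions with a peak in all 10 lists. All 23153 regions with a peak in at least 2 lists entered. The fit had 5 group means and eBayes with a trend, with Benjamini-Hochberg adjustment over all regions, and calls were made below 0.05. All log2 changes given are on that scale. Fit and solver were tested on simulated data. An exact two-sided permutation test of 2 lists against 2 cannot go below p = 0.333, so none was run.

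Named regions are the 6 with the highest ratio, the 6 with the most added bases, up to 4 largest rises and 4 largest falls called in each comparison with GFP, and 2 on each side of the threshold. Bands with several regions, the arm minimum of 90 and the split of calls by parental width were chosen after their values were seen. The regions and tests were chosen with earlier results of these data known. Planned gene lists and cell type markers were not used, because genes were not placed. Bands came from circlize 0.4.16; the remaining work was done in Python 3.11.15 with pandas 2.3.3, numpy 2.4.6, scipy 1.17.1 and matplotlib 3.10.9.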

Additional observations from a re-analysis of the deposited data

How the results depend on the processing

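Of 63 alternative values, 46 stayed within 1.5 times the reported count and 17 did not; for those below, the cause was not tested unless the setting itself removes lists or regions. The rule chose 595 regions, 239 at a ratio of 1.5, and 437 to 1093 with 1 colony or parental list left out. It chose 481 with peaks of −log10 q 10 or more, 682 with lists of equal length and 578 with overlapping peaks merged only. Resistant against GFP, 169 regions were called wider and 67 narrower; without centring these were 79 and 200, and with 1 list left out 111 to 125 and 43 to 60. Without regions under the width limit in resistant lists alone, an alternative chosen after seeing the data, they were 169 and 63. NRAS Q61K against GFP, 38 were called wider and 5 narrower. Without centring 20 were wider; with peaks of −log10 q 10 or more there were 18 and 2, in a limma fit of the 4 lists alone 0 and 0 (154 at an unadjusted p under 0.05), and with 1 list left out 17 to 28 and 3 to 6. Leaving out 1 list of a pair assumes that the lone list varies like the other groups. Correlations of replicate differences in width between groups ran from -0.0463 to 0.125. They cannot show whether the replicate numbers paired the samples, because the labels do not say how replicates were made. With the replicate number as a block, 165 regions were called wider and 67 narrower in resistant than in GFP lists, and 31 wider and 8 narrower in NRAS Q61K than in GFP lists. Depth is known only through the peak statistics, and a domain under the calling threshold of a list counts as uncovered there.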
